A study of Mus musculus with 3 samples.

Results

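Internal coding exons, the protein-coding exons that lie between the first and the last coding exon of a transcript, were compared with the introns beside them in mouse embryonic stem (ES) cells. An exon was taken when it was internal in at least 1 protein-coding transcript of an autosomal gene, lay over 2 kb from any annotated transcription start site (TSS) and held at least 3 CpGs with 5 to 96 observations in the REST knockout library, where an observation is 1 count of the deposited total at a CpG. Of 153399 internal coding exons in the mm9 annotation, 111607 lay over 2 kb from a TSS, 59512 of these held at least 3 CpGs in the genome sequence, and 41558 met the whole rule, which is 37.2% of the exons away from a TSS. They belonged to 10173 genes. The flanking intron was the 500 bp on each side, without bases of any other exon, and 34810 of the exons had at least 3 measured CpGs there and entered the comparison. The rule used coverage in the knockout library and CpG number, and no methylation value.

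The series holds 3 libraries. REST knockout ES cells of Black Agouti 129 background were profiled by whole-genome bisulfite sequencing in 1 library. Wild type ES cells of Mixed (129-C57Bl/6) background gave 2 libraries in which chromatin was first precipitated with an anti-CTCF antibody and then bisulfite converted (ChIP-BisSeq), each pooled from 5 ChIP experiments. Both lines came from blastocysts and were grown on feeder cells or gelatine with serum and LIF. Genotype, strain and assay change together between the knockout library and the ChIP-BisSeq libraries and cannot be told apart. No comparison of genotypes was made, and most results set exons against introns within a library. Codon positions were compared within a library too. Called exons looked up in the ChIP-BisSeq, and knockout methylation by ChIP coverage, set libraries side by side. In those results genotype, strain and assay differ between the sides. The files hold methylation counts and no expression, and the genotype and cell type were taken from the labels without a check. The knockout library held 273375318 observations at 16642627 CpGs, replicate 1 of the ChIP-BisSeq held 13411280 at 2640893 CpGs, and replicate 2 held 25262179 at 7059577 CpGs. Per autosomal CpG, counting unlisted CpGs as 0 and leaving out those above 96 observations in the knockout, the mean was 8.06 observations in the knockout, 0.638 in replicate 1 and 1.14 in replicate 2. Over the 9561781 CpGs with 5 to 96 knockout observations, 52.6% of observations were methylated in the knockout, 35.5% in replicate 1 and 41.5% in replicate 2.

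In mammals most CpGs inside gene bodies carry methylated cytosine, whereas CpG-dense stretches such as CpG islands are usually free of it. Coding exons are richer in CpGs than introns, since codons constrain their sequence, and so a comparison of exons with introns is also one of CpG-rich with CpG-poor DNA. CTCF is a zinc-finger protein that binds a long motif throughout the genome, and its bound sites tend to have reduced methylation.

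A few exons are shown as sequence because each stands for a pattern described below: exons with lower methylation than their introns, one with higher methylation, one with high coverage in the CTCF ChIP, and one dense in CpGs. Each is written 5′ to 3′ on the coding strand of mm9, in lower case, with capitals at the CpGs that had 5 to 96 observations in the knockout library. The Zmym4 exon, from a gene for an MYM-type zinc-finger protein, is chr4:126542741-126542870 on the minus strand, coding exon 27 of 28. The exon of Cat, the gene for catalase, which breaks down hydrogen peroxide, is chr2:103297007-103297114 on the minus strand, coding exon 11 of 13. The exon of Wdr41, which encodes a WD-repeat protein, is chr13:95788072-95788160 on the plus strand, coding exon 11 of 13. The exon of Plekhb1, for a pleckstrin homology domain protein, is chr7:107794084-107794183 on the minus strand, coding exon 6 of 7. The exon of Tacr2, for a tachykinin receptor, is chr10:61723920-61724073 on the plus strand, coding exon 3 of 5. From the Neurl1b exon, in a gene for a neuralized-like ubiquitin ligase, the 200 bases with most measured CpGs are shown, chr17:26575761-26575960 on the plus strand.
Zmym4: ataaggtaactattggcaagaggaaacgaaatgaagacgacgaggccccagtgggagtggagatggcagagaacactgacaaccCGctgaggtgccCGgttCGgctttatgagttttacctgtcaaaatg
Cat: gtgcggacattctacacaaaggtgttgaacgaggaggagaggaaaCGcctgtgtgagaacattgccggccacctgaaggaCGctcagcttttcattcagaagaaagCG
Wdr41: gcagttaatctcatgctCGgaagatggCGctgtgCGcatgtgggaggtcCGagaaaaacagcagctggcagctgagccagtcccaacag
Plekhb1: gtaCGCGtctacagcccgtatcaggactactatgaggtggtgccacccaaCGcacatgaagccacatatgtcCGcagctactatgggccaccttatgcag
Tacr2: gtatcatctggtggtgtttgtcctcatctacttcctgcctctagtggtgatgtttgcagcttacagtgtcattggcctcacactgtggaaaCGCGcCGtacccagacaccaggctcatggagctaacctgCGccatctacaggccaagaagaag
Neurl1b: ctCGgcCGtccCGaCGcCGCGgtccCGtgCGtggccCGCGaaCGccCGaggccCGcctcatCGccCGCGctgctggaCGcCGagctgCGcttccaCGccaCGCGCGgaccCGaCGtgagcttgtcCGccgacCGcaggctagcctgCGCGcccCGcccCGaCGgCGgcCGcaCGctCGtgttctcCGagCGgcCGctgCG

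Most internal coding exons were highly methylated, and so were the introns beside them. In the knockout library the median exon had 75.9% of its observations methylated (quartiles 64.1 and 84.0), and the median flanking intron 73.4% (quartiles 63.6 and 80.3). The median of the exon minus intron difference was 2.21 percentage points, with quartiles at -6.84 and 10.8. Taken per autosome, this median lay between 1.69 and 2.70 points, above 0 on 19 of 19 autosomes (SD 0.337). The mean of the differences was 1.78 points (SD over autosomes 0.240, above 0 on 19 of 19). Autosomes of 1 library are not replicates, so the SD is given as spread and no test was made on it. The exon lay above its intron in 56.9% of pairs and below it in 42.9%. At least 80% methylation was seen in 38.0% of exons and 26.4% of flanking introns, and less than 20% in 808 exons (2.32%) and 573 introns (1.65%), with 364 pairs low on both sides.

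The central 150 bp of 5232 introns over 1500 bp long, measured against the 500 bp around them in the same way, served as a background without an exon. Their median was 74.1% against 73.3%, with a median difference of 1.11 points (SD over autosomes 1.51, above 0 on 15 of 19) and a mean of 0.705 (SD 1.54, above 0 on 14 of 19). The exon median of 2.21 points lay above the median of the intron centres by less than the spread of the latter over autosomes. That spread describes single autosomes and not the error of the whole median, and the gap was not tested. For 3516 last coding exons the mean difference was -0.527 points (SD over autosomes 1.22, above 0 on 8 of 19). For 578 first coding exons it was -1.34 points (SD 2.23, above 0 on 7 of 19), both for exons over 2 kb from a TSS. Both means lay within that spread, and only the intron on the coding side served as flank.

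**Figure D1:**
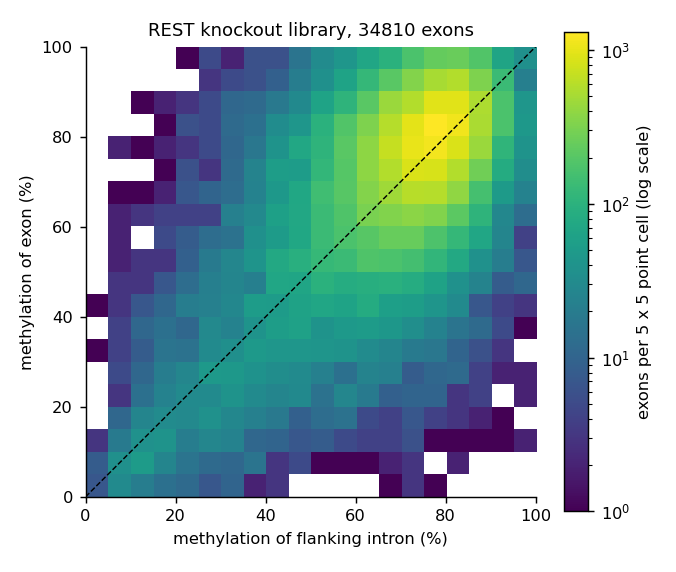
Methylation of each of 34810 internal coding exons (vertical axis, %) against that of its flanking intron (horizontal axis, %) in the REST knockout library, as the number of exons in each cell of 5 by 5 points on a log colour scale, with the dashed line at equality. Most exons lie above 50% on both axes, and cells far from the line hold few exons.

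The order turned around when observations were summed rather than averaged over exons. Over the 228425 exon CpGs, 65.3% of 4514549 observations were methylated, and over the 274957 intron CpGs 68.0% of 4493616, a difference of -2.76 points (SD over autosomes 1.69, below 0 on 17 of 19). The summed difference was -1.38 points in ChIP-BisSeq replicate 1 (51.8% against 53.2%) and -2.71 in replicate 2 (54.0% against 56.7%), with a mean of -2.04 ± 0.942 (SD, n = 2). Over autosomes the SD was 7.49 and 6.33 points in these replicates, and the difference was below 0 on 11 and 13 of 19, so in the ChIP-BisSeq it lay within that spread. The intron centres summed to a difference of 2.21 points in the knockout (68.5% against 66.3%, SD over autosomes 2.32) and of 8.23 and 5.23 points in the replicates, the other direction from the exons. Summing gives each exon a weight equal to its observations, which are most numerous in long, CpG-dense exons. Exons with at least 8 CpGs per 100 bp were 694 of the 34810 and held 7.74% of the exon observations, at 23.3% methylation against 37.5% in their introns. Without them the sum was 68.8% in exons and 68.9% in introns, a difference of -0.102 points (SD 1.42, above 0 on 10 of 19 autosomes). With exons of 400 bp or longer left out as well, 32781 exons remained, and the sum was 70.3% against 68.9%, 1.37 points (SD 0.868, above 0 on 17 of 19).

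The per-exon difference was smaller, and then negative, in longer exons. Its mean was 2.90 points in exons under 100 bp, 2.50 from there to under 150 bp, 1.59 to under 200 bp, 0.699 to under 400 bp, -1.69 to under 1000 bp and -3.12 in the 326 longer exons. It also differed with the number of observations in the exon, from 4.54 points under 30 observations to -1.31 at 240 or more, and the part of depth in the difference was not tested. The mean was 0.934 points in the 2127 exons with under 2 CpGs per 100 bp (SD over autosomes 1.84, above 0 on 12 of 19), 2.07 in the 18022 exons with 2 to 4, 1.92 in 11280 exons with 4 to 6, and 0.928 in 2687 exons with 6 to 8. It was -1.46 in 641 exons with 8 to 12 CpGs per 100 bp, where the median exon stood at 56.6% and the median intron at 58.7%. By contrast, the mean lay between 1.67 and 1.97 points in 5 classes of distance from the nearest TSS, while the median exon methylation itself rose from 74.0% at 2 to 5 kb to 78.6% beyond 50 kb. Exons present in every annotated transcript that spans them (17985) had a mean of 1.90 points (SD over autosomes 0.386), and those missing from or different in a spanning transcript (3131) had 1.09 (SD 1.56). The gap was smaller than the latter spread over single autosomes and was not tested.

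CpGs were then compared at equal local density, counting the CpGs within 100 bp on either side. Among CpGs with 3 to 4 in that window, exon CpGs were 73.3% and intron CpGs 70.9% methylated, 2.47 points apart (SD over autosomes 1.13, exon above on 19 of 19). With 5 to 8 the values were 72.3% and 68.9% (3.34 points, SD 1.43, 18 of 19), and with 9 to 16 they were 61.7% and 56.8% (4.94 points, SD 3.49, 18 of 19). At matched density the exon CpGs were thus the more methylated in these 3 classes. With 17 or more, both stood low, at 14.2% in exons and 13.3% in introns (0.875 points, SD 11.5, 11 of 19), and with 1 CpG in the window they were 71.6% and 70.8% (0.801 points, SD 5.99, 10 of 19). Windows with 9 to 16 CpGs held 29.1% of the exon CpGs but 8.54% of the intron CpGs. In the ChIP-BisSeq replicates 1 and 2 the exon CpGs were higher by 9.32 and 7.06 points with 3 to 4 CpGs, by 10.1 and 9.23 points with 5 to 8, and by 19.3 and 13.6 points with 9 to 16.

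**Figure D2:**
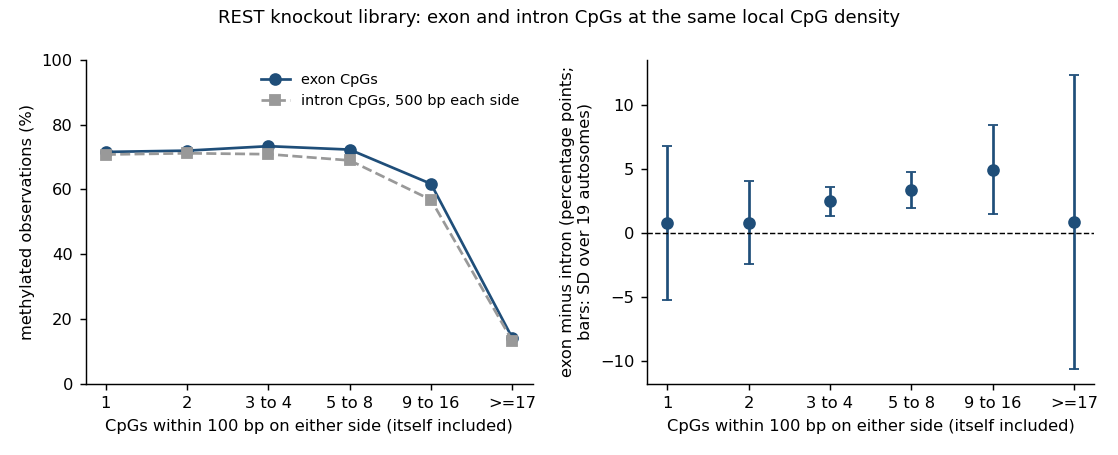
Methylation in the REST knockout library by the number of CpGs within 100 bp on either side, for exon and intron CpGs (left, %) and as exon minus intron (right, percentage points, bars show SD over 19 autosomes). The difference is above 0 by more than its SD in the classes 3 to 4 (2.47 points), 5 to 8 (3.34) and 9 to 16 (4.94), and both kinds of CpG are lowest in the densest class, at 14.2% and 13.3%.

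Across the splice sites the change in methylation was small. In the knockout library 66.0% of observations were methylated in the last 50 bp of intron before an exon (SD over autosomes 2.24) and 68.6% at 451 to 500 bp from it (SD 2.77). Just inside the exon the value was 68.0% over bases 1 to 10 and 68.8% over bases 26 to 50. At 76 to 100 bp inside, it was 65.8% from the 3′ splice site and 65.4% from the 5′ splice site, the lowest of the profile. Exon positions were counted only up to the middle of the exon, so these inner stretches came from longer exons. After the exon the value was 66.8% over the first 50 bp of the next intron, 66.5% over the following 50 bp and 69.2% at 451 to 500 bp. The lowest intron stretch thus lay within 100 bp of the exon on both sides, less than 3 points below the farthest stretch, which is about the spread over autosomes. Of 16448 exons with at least 3 measured CpGs in each neighbouring intron, 35.8% lay above both introns and 27.3% below both, and the medians were 73.5% upstream, 75.7% in the exon and 73.8% downstream.

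**Figure D3:**
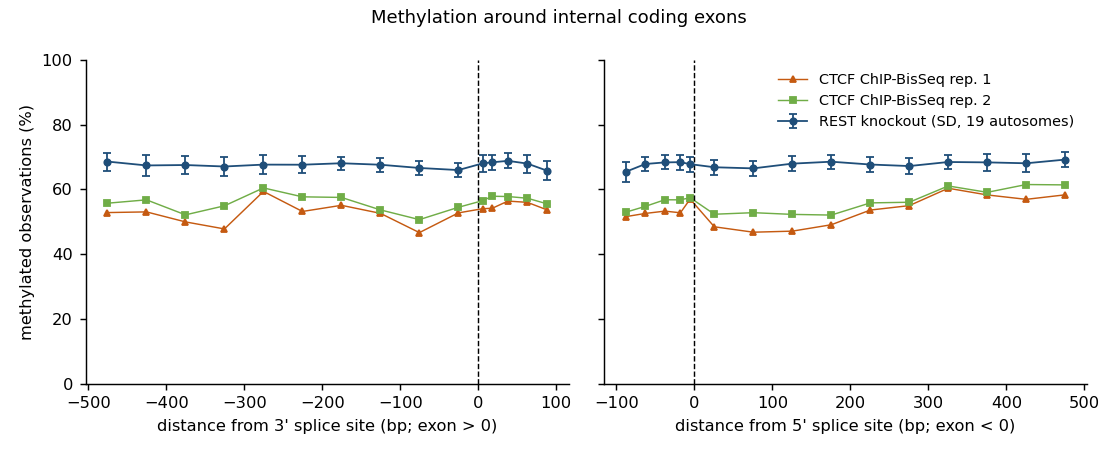
Methylated observations (%) by distance in bp from the 3′ splice site (left) and the 5′ splice site (right) of internal coding exons, in the REST knockout library (bars show SD over 19 autosomes) and in both CTCF ChIP-BisSeq replicates. The knockout values stay between 65.4% and 69.2%, and the replicates lie below them at every distance. Exon positions are counted only up to the middle of the exon, so the inner stretches come from longer exons.

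Exon CpGs differed slightly by their place in the reading frame. A CpG whose C is the first base of a codon is part of an arginine codon, and 79811 such CpGs were 66.7% methylated in the knockout. The 54010 CpGs with C at the second base were 63.8% methylated, and the 93996 CpGs with C at the third base, where the G opens the next codon, 64.8%. First-base CpGs exceeded second-base CpGs by 2.86 points (SD over autosomes 1.23, on 19 of 19 autosomes) and third-base CpGs did so by 1.00 (SD 1.24, on 14 of 19). In the ChIP-BisSeq the first-base, second-base and third-base values were 54.8%, 46.5% and 52.5% in replicate 1, and 55.4%, 51.0% and 54.7% in replicate 2. Second-base CpGs were the lowest class in each of the 3 libraries.

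For single exons, methylated and unmethylated observations were compared with those of the flanking intron by a two-sided Fisher's exact test with Benjamini-Hochberg adjustment over 44136 regions, and an exon was called at an adjusted p under 0.05 and a difference of at least 20 points. By this rule 1858 exons (5.34%) were lower and 2447 (7.03%) higher than their introns. The same rule called 364 intron centres (6.96%) lower and 364 (6.96%) higher, although these had fewer observations (median 47 against 74). It called 9.69% of first coding exons lower and 7.09% higher, 9.81% and 7.88% of last coding exons, and 5.94% and 7.09% of all regions tested. The share of internal coding exons called was thus close to the share of intron stretches without an exon. A sequencing read that spans several CpGs gives an observation at each, and these are not independent, so the test's p-values are too small. The test was therefore repeated with CpGs at least 100 bp apart, so that a short read falls on at most 1 of them, a choice made after the data were seen. Then 581 exons (1.67%) were lower and 415 (1.19%) higher, among them 357 and 258 of those called before. Intron centres gave 1.74% lower and 1.07% higher, again close to the exons. The median exon entered with 1 CpG and 20 observations, and its introns with 54. Dividing the observations of each side by its number of CpGs is stricter than the reads require, since it keeps only the mean depth of a CpG, with a median of 14.4 in the exon and 13.7 in the intron, and 1 exon was lower and 0 higher. At an unadjusted p under 0.05 and at least 20 points these were 322 and 352, and 690 exons had such a p at any difference, fewer than 1 in 20 of those tested.

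The exon that also passed with averaged observations was in Neurl1b, which was picked out after its value was seen. This gene codes for a neuralized-like ubiquitin ligase that acts on Notch ligands. The exon, chr17:26575612-26576304, is coding exon 3 of 5, is 693 bp long with 95 measured CpGs, and lies 23702 bp from the nearest TSS. In the knockout 508 of 3612 observations (14.1%) were methylated, against 290 of 399 (72.7%) in the introns (adjusted p = 9.05e-128 by Fisher's exact test, 5.62e-20 with CpGs at least 100 bp apart, and 0.0139 with observations averaged over CpGs). In the 200 bases printed above, which hold 40 of its measured CpGs, 273 of 1818 observations (15.0%) were methylated. The ChIP-BisSeq exon values were 3 of 26 (11.5%) and 23 of 145 (15.9%), low in both replicates, with 2 of 2 and 2 of 3 in the introns. Its pooled ChIP coverage was 0.989 times the library mean.

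Neurl1b belongs to a small class of exons with many CpGs for their length. In all, 53 compared exons in 47 genes had at least 12 CpGs per 100 bp, and 42 of them were under 20% methylated in the knockout. Their introns were low as well in many cases, with 28 under 20%, and each of these 28 stood beside an exon under 20%. The medians were 9.10% for the exons and 17.4% for the introns, and 13 were called lower (24.5%) and 2 higher (3.77%), beside 5.34% and 7.03% of all compared exons. Some of the 53 were short exons that reach this density with few CpGs. Those of Necab2 (25 bp, 4 CpGs) and Col17a1 (48 bp, 6 CpGs) were 79.3% and 72.1% methylated. A short Ssbp4 exon (29 bp, 4 CpGs) stood at 11.4%. The exons named next were picked after their values were seen, mainly for their number of CpGs. In Grin2d, which encodes a subunit of the NMDA-type glutamate receptor, 158 CpGs of coding exon 12 of 13 were 3.16% methylated over 6482 observations, against 29.3% of 184 in the introns. The ChIP-BisSeq values of that exon were 11.1% of 45 and 3.91% of 128 observations. The 147 CpGs of the Foxo6 exon, from a forkhead transcription factor gene, were 5.69% methylated against 36.6% in the introns, and 10.3% and 5.59% in the ChIP-BisSeq replicates. In Cacna1a, for the pore-forming subunit of P/Q-type calcium channels, coding exon 19 of 47 was 3.34% methylated against 32.8%, with 8.33% and 14.4% in the ChIP-BisSeq. These exons were low in each of the 3 libraries.

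In other CpG-dense exons the intron was already low. Coding exon 13 of 32 of Ptprs, for a receptor-type tyrosine phosphatase, stood at 3.48% against 12.8%, and coding exon 3 of 5 of Asb18, for an ankyrin-repeat and SOCS-box protein, at 2.24% against 16.9%. The exon of Neurl1a, the paralogue of Neurl1b, was 5.74% methylated against 17.4%. An opposite case was the Dab1 exon of 51 bp, from a gene for an adaptor in reelin signalling, with 94.6% in the exon and 87.6% in the introns over 7 exon CpGs. It was not called. The 2 exons called higher, each with 4 CpGs, were in Nrxn2 (76.5% against 26.6%) and Cadm1 (43.9% against 22.1%). High coverage in the ChIP, over 10 times the library mean, was seen in 6 of the 53, among them exons of Nfkb2, a subunit gene of NF-kappaB, at 91.2 times and Dll3, a Notch ligand gene, at 56.4 times.

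**Figure D4:**
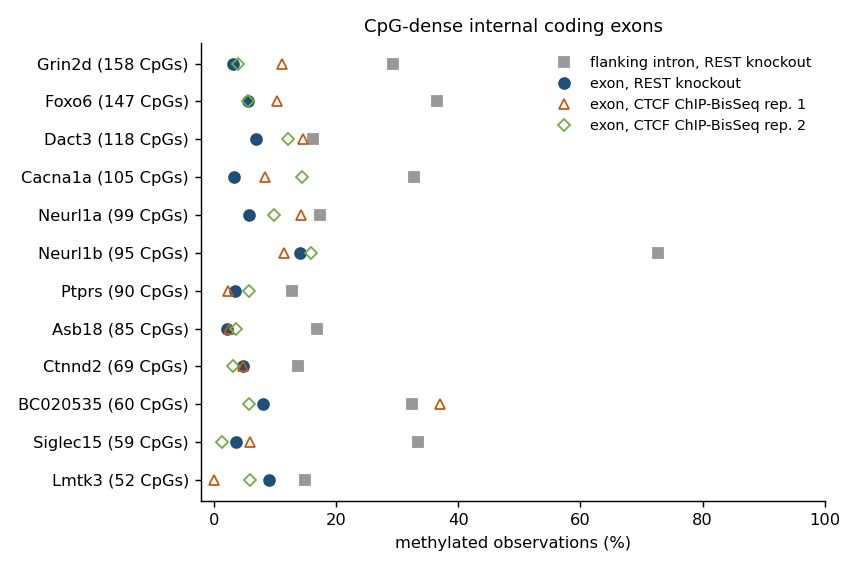
Methylated observations (%) in the 12 exons with most measured CpGs among those with at least 12 CpGs per 100 bp, for the exon and its flanking intron in the REST knockout library and for the exon in both CTCF ChIP-BisSeq replicates. The knockout exon values lie between 2.24% and 14.1%, each below its intron value, and the Neurl1b intron stands apart at 72.7%.

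Among called exons with at least 30 observations on each side, the 10 with the lowest values relative to their introns included those of Zmym4, Cat and Wdr41, whose sequences are printed above. In Zmym4 the exon had 12 of 48 observations methylated (25.0%, 95% exact interval 13.6 to 39.6) and the intron 46 of 49 (93.9%, 83.1 to 98.7), a difference of -68.9 points. Each of its 3 measured CpGs held 4 methylated of 16 observations, so the same reads may lie behind all of them. The other 3 CpGs of the exon, below the coverage minimum, had 2 of 3, 2 of 2 and 2 of 2 methylated. In ChIP-BisSeq replicate 1 all 4 observations of this exon were methylated, and replicate 2 had none.

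The Cat exon had 1 of 32 observations methylated (3.12%, exact interval 0.0791 to 16.2) and its introns 208 of 295 (70.5%). Its single CpGs showed 0 of 15, 0 of 12 and 1 of 5. The replicates gave 54 of 144 (37.5%) and 34 of 203 (16.7%) in the exon, against 60 of 163 (36.8%) and 53 of 212 (25.0%) in the introns, so the exon was not the lower side in replicate 1. Its pooled ChIP coverage was 39.6 times the library mean. The low stretch reached into the intron: with a flank of 200 bp instead of 500 bp the difference was -18.3 points and the exon was no longer called. The Wdr41 exon was likewise low and highly covered in the ChIP, with 3 of 55 knockout observations methylated (5.45%) against 78 of 116 (67.2%), 17 of 255 (6.67%) and 22 of 130 (16.9%) in the replicates, and 54.0 times the mean coverage. Its 4 CpGs each had 13 or 14 knockout observations, of which 0 to 2 were methylated.

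The other exons of this group were in Mreg, for melanoregulin, 4932425I24Rik, Carm1, for an arginine methyltransferase of histones, Eps15l1, for an endocytic adaptor, Med30, for a Mediator subunit, Clec16a, and Tram1, for a protein of the translocation channel of the endoplasmic reticulum. Their exons were 11.5% to 25.6% methylated and their introns 78.3% to 92.3%, with differences from -66.8 to -61.5 points. Their pooled ChIP coverage was 0.187 to 3.37 times the mean, without the excess seen at Cat and Wdr41. Their few ChIP-BisSeq observations were in part highly methylated. In replicate 2 these were 5 of 5 at 4932425I24Rik, 2 of 2 at Mreg and Clec16a, 3 of 4 at Carm1, 8 of 12 at Tram1, 6 of 13 at Eps15l1 and 1 of 2 at Med30, and in replicate 1 the Eps15l1 exon had 0 of 11. With CpGs at least 100 bp apart, 8 of these 10 exons were still called by the exact test, and Med30 and Clec16a were not (adjusted p = 0.199 and 0.222). With observations averaged over CpGs, the adjusted p of each of the 10 was at least 0.271.

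Among called exons with at least 30 observations on each side, the largest difference above the introns was at Col8a2, for a collagen VIII chain. There 122 of 161 exon observations were methylated (75.8%, exact interval 68.4 to 82.2) against 11 of 133 in the intron (8.27%, 4.20 to 14.3), a difference of 67.5 points. Here the intron was the covered side in the ChIP, at 76.2 times the library mean and with 5 of 481 observations methylated in replicate 1, while the exon stood at 1.92 times. Plekhb1 showed the same arrangement: its exon had 105 of 133 observations methylated (78.9%) and its introns 5 of 38 (13.2%), with pooled ChIP coverage 2.13 times the mean in the exon and 14.7 times in the introns. The others described here were exons of Trpm1, a cation channel gene of retinal bipolar cells, Fryl, 1200009I06Rik, Ttn, for the muscle protein titin, Mgat5, for a Golgi glycosyltransferase, Macf1, for a linker of microtubules and actin, and Cecr2, for a bromodomain protein of chromatin remodelling. Their exons were 69.6% to 100.0% methylated and their introns 8.82% to 38.9%. The intron values of Plekhb1, Ttn, Macf1 and Cecr2 rested on 3 measured CpGs each. In ChIP-BisSeq replicate 2 the 1200009I06Rik intron was low too, with 45 of 177 observations methylated. Other introns had few observations there, highly methylated, with 11 of 12 at Fryl and 6 of 6 at Mgat5. Trpm1 had 3 of 3, Ttn and Cecr2 2 of 2 each, and Macf1 none. In replicate 1 the introns had 44 of 209 at 1200009I06Rik, 16 of 16 at Mgat5 and 1 of 1 at Fryl. With CpGs at least 100 bp apart, 8 of the 10 exons of this group were still called by the exact test, and Fryl and Mgat5 were not (adjusted p = 0.217 and 0.501). With observations averaged over CpGs, the adjusted p of each was at least 0.151.

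The ChIP-BisSeq libraries did not enter the calls, and called exons with at least 10 observations on each side could be looked up there. Of the exons called lower, 181 could be read in replicate 1 and 67.4% of them were lower there too, with a median difference of -12.5 points, and in replicate 2 it was 68.6% of 354, with a median of -12.8. Of the exons called higher, 77.6% of 98 were higher in replicate 1 (median 30.9 points) and 79.6% of 280 in replicate 2 (median 27.0). Over all compared exons that could be read, 41.1% were lower and 50.3% higher in replicate 1 (1302 exons), and 44.1% and 49.8% in replicate 2 (4343). With the replicates pooled, 67.3% of 505 lower exons were lower (median -13.6 points) and 72.1% of 459 higher exons were higher (median 16.1), beside 43.1% and 47.9% of 7199. The direction of a called exon was thus shared by more of the exons than this background, and by fewer than all. Most called exons were too thinly covered in the ChIP to be read. The exons that could be read were not typical of all. Their median knockout difference was -2.50 points in replicate 1 and -0.201 in replicate 2, beside 2.21 over all compared exons.

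Exons with more CTCF ChIP coverage were less methylated in the knockout library. The 4680 exons with no ChIP observation had a median of 78.3% in the knockout, against 75.2% in their introns, and the 18919 exons with pooled coverage below the library mean had 76.7% against 74.3%. At 1 to 3 times the mean (9647 exons) the medians were 74.4% and 72.0%, and at 3 to 10 times (1062 exons) 63.2% and 63.0%. The 502 exons covered over 10 times the mean (1.44%) stood at 31.6% against 47.5%, with a median difference of -9.55 points (SD over autosomes 6.08, below 0 on 19 of 19). In that class 119 exons (23.7%) were called lower and 14 (2.79%) higher, beside 5.34% and 7.03% of all compared exons. Their summed methylation in the ChIP-BisSeq was 22.2% in replicate 1 and 19.6% in replicate 2, against 22.6% and 20.4% in the introns. In the ChIP libraries the sums over these exons and over their introns therefore differed by less than 1 point. Such sums give most weight to the most covered CpGs, and single exons could differ from their introns by more. The CTCF consensus motif, searched by exact match on both strands in the 200 bp around the exon centre, was found in 36 of the 502 (7.17%), in 66 of all 34810 exons (0.190%) and in 23 of 5232 intron centres (0.440%). A match is a description of the sequence and does not mark a bound site.

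The 5 exons with the highest pooled ChIP coverage were in Tacr2, Def6, Rin1, Masp2 and B4galnt1. The Tacr2 exon was covered 124 times the mean, with 5 of 33 knockout observations methylated (15.2%, exact interval 5.11 to 31.9) against 63 of 124 (50.8%) in its introns. It was called lower (adjusted p = 0.00315 by Fisher's exact test). In the replicates the exon had 58 of 360 (16.1%) and 94 of 526 (17.9%), and its introns 72 of 188 (38.3%) and 86 of 266 (32.3%). The values that follow for the other 4 are from the knockout. Def6 had 2.02% in the exon and 8.31% in the introns at 122 times the mean. B4galnt1, for a ganglioside synthase, had 3.30% and 6.92% at 107 times. Rin1, for a Ras effector, had 26.4% and 34.8% at 116 times, and Masp2, for a protease of the complement lectin pathway, 43.8% of 16 observations and 70.0% at 115 times. None of these 4 exons was called. At Def6 and B4galnt1 the introns were below 20%, so a drop of 20 points was not possible. Their adjusted p by Fisher's exact test was 0.00262 and 0.0370, and at Rin1 and Masp2 it was 0.300 and 0.207. In the ChIP-BisSeq the exon was below its introns in both replicates at Def6, Rin1 and Masp2. At B4galnt1 it was above them in replicate 1 (2.97% against 2.33%) and below in replicate 2 (2.57% against 3.46%).

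Coverage itself differed between exons and introns. In the knockout the mean number of observations per CpG was 18.9 in the compared exons and 12.7 in their introns, a ratio of 1.49 (SD over autosomes 0.0711). Since the rule asks for coverage in that library, the ratio was also taken over the 97103 internal coding exons with a CpG on each side before the coverage rule, where it was 1.46 (SD 0.0491, above 1 on 19 of 19 autosomes). Over those exons the ratio was 1.08 in ChIP-BisSeq replicate 1 (SD 0.119, above 1 on 13 of 19) and 1.16 in replicate 2 (SD 0.0936, above 1 on 18 of 19). For 48064 intron centres it was 0.931, 0.942 and 0.934 in the knockout and the replicates. With CpGs that a library does not list left out rather than counted as 0, the pooled ChIP ratio of the compared exons was 0.987 instead of 1.15. The excess over exons was thus larger than the spread over autosomes in the knockout, and in the ChIP it depended on how unlisted CpGs were counted. In the knockout the coverage per CpG began to rise about 200 bp before the exon, from 1.49 times the library mean at 201 to 250 bp to 1.90 over the last 50 bp, and reached 2.41 times at 76 to 100 bp inside the 5′ splice site. Positions inside an exon were counted only up to its middle, so the stretch at 76 to 100 bp came from longer exons alone. Position and exon length were not separated here.

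**Figure D5:**
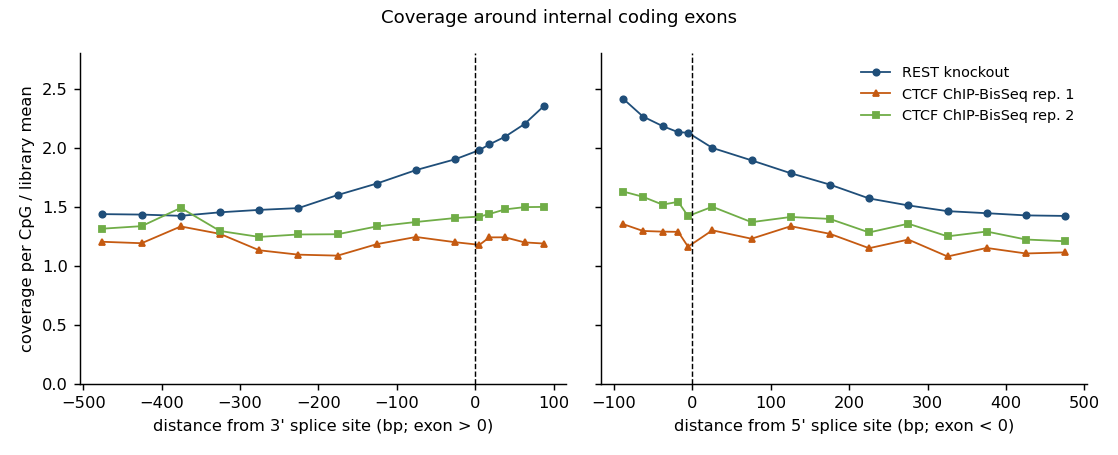
Mean observations per CpG relative to the library mean, by distance in bp from the 3′ splice site (left) and the 5′ splice site (right) of the compared exons, in the REST knockout library and both CTCF ChIP-BisSeq replicates. The knockout line climbs from 1.44 at 451 to 500 bp before the exon to 2.36 at 76 to 100 bp inside it, while replicate 1 stays between 1.08 and 1.35 and replicate 2 between 1.21 and 1.63. Exon positions are counted only up to the middle of the exon, so the inner stretches come from longer exons.

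Genes whose products are built from many coding exons were described by family, and the count of called exons in each is given beside the 5.34% lower and 7.03% higher of all. Families were set by patterns of gene symbols, so a list can hold genes of similar name from outside the family. The extracellular matrix families lay near the whole. Of 266 exons of collagen chains 11 were lower (4.14%) and 16 higher (6.02%), with a median difference of 3.38 points, and of 173 exons of laminin chains 7 and 9, with a median of 2.93. Among genes with symbols of adhesion receptors, 5 of 164 integrin exons were lower (3.05%) and 15 higher (9.15%), with a median of 3.73. For cadherins with a numbered Cdh symbol, classical or not, 5 and 8 of 119 exons were called, and their median of 4.51 was the highest of the families.

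Motor protein genes gave 16 lower and 16 higher of 402 dynein heavy chain exons (median 2.68 points), 11 and 20 of 188 myosin heavy chain exons (median 1.97) and 11 and 12 of 242 kinesin exons (median 2.67). Transport across membranes was represented by 234 exons of voltage-gated calcium and sodium channels with 10 lower and 19 higher (median 2.71), 321 exons of ABC transporters with 17 and 23 (median 2.89) and 101 exons of genes with glutamate receptor symbols with 6 and 8 (median 2.18). This last list took in Grid2ip, a gene for a receptor-interacting protein, which had an exon among the 6 lower ones. Genes that act on chromatin and DNA methylation did not stand apart from these. Chromatin remodellers and histone methyltransferases had 10 lower and 7 higher of 201 exons (median 2.16), and the DNA methylation and demethylation enzymes 1 and 3 of 45 (median 3.12).

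In signalling and axon guidance, 4 exons of Notch receptors and ligands were lower and 4 higher of 89 (median 0.683, the lowest of the families), 6 and 4 of 73 ephrin receptor exons (median 2.62), and 13 and 8 of 168 semaphorin and plexin exons (median 1.93). The median difference was above 0 in each of the 15 families, as it was over all exons. Ttn, whose protein spans the sarcomere of muscle, held the most exons that met the rule (134), of which 57 had measured introns, with 2 lower, 2 higher and a median of 3.17 points. Called exons were spread over many genes. Of 8932 genes with a compared exon, 1549 had one called lower and 1962 one called higher, and 456 had both, while 46 genes had at least 3 lower and 92 at least 3 higher.

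At the edge of the rule, exons with 3 measured CpGs (8092) had medians of 76.8% and 73.6% in exon and intron, and exons with 2, which did not meet it (9123), had 76.0% and 73.3%.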

How the data were processed

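The authors deposited, for each library, a table of autosomal and other CpG positions with 2 counts, the total and the methylated observations. The submitters' processing notes name Bowtie 0.10.0.1 and mm9. Whether duplicate reads were removed is not given in the sources used here. The knockout library had 10 PCR cycles. Intervals cover counting error only and take each observation as independent.

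Exons came from GENCODE vM1 on mm9, with 159145 internal intervals collapsed to 153399 where they overlapped, and every listed autosomal position was a CpG of mm9. Methylation was methylated over total counts, summed over CpGs with 5 to 96 knockout observations. Retained-intron transcripts did not remove flank bases. Tests were two-sided Fisher's exact tests, adjusted over internal, first and last coding exons and intron centres together. They were run on simulated data with independent observations, which cannot show the effect of reads that span several CpGs. Intervals are exact (Clopper-Pearson, 95%). Named exons were the 10 called in each direction with the largest difference, at most 1 per gene with at least 30 observations on each side, the 5 with the highest pooled ChIP coverage, and the gene with most exons. An exon that this rule names is not reported here. The exons and gene lists were chosen with earlier results of these data known. Python 3.11.15, NumPy 2.4.6, pandas 2.3.3, SciPy 1.17.1 and matplotlib 3.10.9 were used. Alternatives changed coverage limits, CpG number, flank size, the difference called and the summary.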

Additional observations from a re-analysis of the deposited data

How the results depend on the processing

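The summed exon minus intron difference in the knockout (-2.76 points) was -3.20 with at least 10 observations per CpG, -2.67 with no upper limit, -2.91 and -3.03 with flanks of 200 and 1000 bp, and -1.18 as a mean over CpGs. Chosen after the data were seen, the mean over exons was 1.78 and the sum without exons of 8 or more CpGs per 100 bp -0.102. The mean over exons stayed above 0 on 19 of 19 autosomes in each alternative run for it (1.28 to 1.98 points). Exons called lower and higher were 1858 and 2447, and became 1037 and 1380 with at least 10 observations per CpG, 1078 and 1375 with at least 5 CpGs, 1012 and 1415 with 200 bp flanks, 2890 and 4084 at 10 points, and, chosen after seeing the data, 581 and 415 with CpGs at least 100 bp apart and 1 and 0 with observations averaged over CpGs. The pooled ChIP-BisSeq difference (-2.24) was -3.27 with at least 10 knockout observations, and -2.71 to -1.38 with either replicate left out. The knockout coverage ratio of 1.49 was 1.47 with no upper limit, 1.30 with 200 bp flanks, 1.41 over listed CpGs and 1.46 over all exons before the rule, the last added later. The pooled ChIP ratio of 1.15 was 0.987 over listed CpGs and 1.08 to 1.18 with either replicate left out. The summed intron centre difference of 2.21 was 3.15 with at least 10 observations and 0.694 for the central 300 bp. Except as their construction shows (fewer CpGs, exons or observations), the cause was not tested. Of 120 values of the 20 exons chosen for their difference, 119 kept direction and call, and Cat with 200 bp flanks lost its call (-18.3 points). An exon that a setting removed from the comparison gave no value and is not counted among the 120. Most of the 20 gave none with 200 bp flanks or with at least 10 observations per CpG, Zmym4 among them. In 5 of the 120 the difference was over 1.5 times smaller, Cat among them, with Wdr41 at -27.9 with 200 bp flanks, and Zmym4 at -45.3, Mgat5 at 27.4 and Macf1 at 24.2 with 1000 bp flanks. Outside these 120, each of the 20 lost its call with averaged observations and 4 did with CpGs 100 bp apart. No paired analysis was possible because the knockout group has 1 library and shares no replicate pairs with the ChIP-BisSeq group. With 1 knockout library, the spread between cultures is unknown, and at a median of 20 observations per exon over CpGs 100 bp apart, many differences near 20 points were not detectable.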
